A study of Mus musculus with 3 samples.

Results

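The core replication-dependent histone genes are the many small gene copies that encode histones H2A, H2B, H3 and H4. They were taken as the mouse genes whose symbols read H2ac, H2bc, H3c or H4c followed by a number, which gave 59 of 49939 annotated genes (RefSeq annotation of GRCm38.p6, the assembly that mm10 names). There were 19 H2ac, 16 H2bc, 12 H3c and 12 H4c genes, 57 of them protein coding and 2 pseudogenes (H2ac14 and H2ac5-ps). Chromosome 13 held 49 and chromosome 3 held 10. On chromosome 11 the count by symbol was 0, and the histone genes annotated there as H2bu2, H2bu1-ps, H2aw and H3f4 are outside the 59 and serve only as a comparison. The 59 were chosen after the difference between old and young tubule cells in these same libraries was known, and were in that sense selected on the counts in their peaks, so their values in proximal tubule and loop to collecting duct cells are a description with no test.

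The open chromatin of kidney cells was measured by mtscATAC-seq, a single-cell transposase assay on fixed, permeabilised cells that keeps the mitochondria inside. Every library came from mice with a mutation of trnE, the mitochondrial gene for the glutamate tRNA, and the load is the percent of mitochondrial genomes that carry it. Old replicate 1 was made from the kidney of 75-week-old mice at 75% load, old replicate 2 another of the same age at 80% load, and young cells came from kidney of 3-week-old mice, also at 80% load. The deposited name of old replicate 1 reads 80 where its label gives 75% load; the label is followed here, and whether the old libraries differ in load is uncertain. No group without the mutation was analysed here, the sources do not give sex, and the labels do not say whether the old libraries came from separate animals. The young group is 1 library, so age and library cannot be told apart, and errors on the old side measure only the spread between 2 libraries, which may be technical.

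Histones package DNA into nucleosomes, and the replication-dependent genes are transcribed in S phase, when new DNA needs new nucleosomes. Their messenger RNAs have no poly(A) tail and end in a stem-loop bound by SLBP, and the coactivator NPAT gathers the gene clusters into nuclear histone locus bodies. Kidney tubule cells divide while the organ grows after birth and divide seldom in the adult. An open promoter measured by transposase is not a measure of transcription, and no RNA was measured in these libraries.

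Old replicate 1 held 5656 barcodes, old replicate 2 held 4302 and the young library 4440, with medians of 16288.5, 13338.5 and 23319.5 counts in peaks per barcode. Pairs of libraries shared between 28 and 39 barcode sequences. Old replicate 1 was mostly immune cells: it held 197 proximal tubule-like cells, with 3054 in old replicate 2 and 3085 young ones. The loop to collecting duct-like class held 57, 327 and 208 cells, and the endothelium-like class 183, 105 and 50. Macrophage or dendritic cell-like cells numbered 3286 in old replicate 1, against 123 in the young library, and T or NK cell-like cells 1230, against 74, while old replicate 2 held 4 and 2 of them. Markers of the proximal tubule, summed over the 12 with a region called in every library, reached 1101 and 1242 CPM (counts scaled to a common library total) in the old libraries and 1351 in the young library in the proximal tubule-like class and at most 191 in the loop to collecting duct-like class. The loop to collecting duct-like class was cluster 9, in which 5 of 6 connecting tubule markers were raised, and its thick ascending limb marker sum of 316 to 383 lay not far above the 244 to 311 of the proximal tubule-like class. Values in CPM are cut-site counts in a gene's peaks expressed relative to the sum of the counts in the 72317 regions with a peak in every library, within 1 class and library.

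On chromosome 13 the genes lie in 5 blocks separated by more than 50 kb, a division made after the values were seen. Block A holds 17 genes, from H2bc13 to H2ac24 (chr13:21715711-21833475). Block B holds 5, from H2ac12 to H2bc11 (chr13:22035122-22043658). Block C holds 14, from H4c8 to H2bc6 (chr13:23531044-23621124). Block D holds 11, from H2ac6 to H3c1 (chr13:23683473-23762386), and block E holds H2bc1 and H2ac1 (chr13:23933725-23934913). The chromosome 3 genes form 1 block, from H2ac21 to H2bc18 (chr3:96219885-96270192).

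RefSeq promoters, 250 bases before to 50 after the annotated start, were found for 52 of the 59 genes. In 9 pairs, each of an H2A with an H2B gene, the genes run away from each other from starts 164 to 281 bases apart, so that a peak can cover both promoters. The stretches below are the 250 bases before the start of 1 H2B gene in each block with a peak, shown so that promoters of the blocks with lower old values can be set beside those of the other blocks. They are RefSeq sequence of GRCm38.p6, all on the plus strand, read 5′ to 3′. Capitals mark the octamer ATTTGCAT, the box CCAAT, the box TATAAA and TGACGTCA, each on either strand.
H2bc15 (block A, chr13:21753826-21754075): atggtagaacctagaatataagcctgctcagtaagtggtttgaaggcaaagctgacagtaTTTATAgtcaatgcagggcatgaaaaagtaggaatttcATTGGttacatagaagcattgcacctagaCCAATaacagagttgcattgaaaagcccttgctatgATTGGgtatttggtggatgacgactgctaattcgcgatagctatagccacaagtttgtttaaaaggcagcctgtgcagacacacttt
H2bc11 (block B, chr13:22042948-22043197): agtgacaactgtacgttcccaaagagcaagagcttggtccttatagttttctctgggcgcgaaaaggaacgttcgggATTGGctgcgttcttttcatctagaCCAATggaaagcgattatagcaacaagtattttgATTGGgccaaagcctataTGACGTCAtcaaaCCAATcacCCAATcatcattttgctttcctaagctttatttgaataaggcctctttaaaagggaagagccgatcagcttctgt
H2bc8 (block C, chr13:23571150-23571399): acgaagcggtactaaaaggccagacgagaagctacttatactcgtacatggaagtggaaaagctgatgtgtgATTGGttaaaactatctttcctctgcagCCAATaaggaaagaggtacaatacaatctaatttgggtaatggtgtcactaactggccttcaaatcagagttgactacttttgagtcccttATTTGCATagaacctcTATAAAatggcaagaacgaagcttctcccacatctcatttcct
H2bc3 (block D, chr13:23746484-23746733): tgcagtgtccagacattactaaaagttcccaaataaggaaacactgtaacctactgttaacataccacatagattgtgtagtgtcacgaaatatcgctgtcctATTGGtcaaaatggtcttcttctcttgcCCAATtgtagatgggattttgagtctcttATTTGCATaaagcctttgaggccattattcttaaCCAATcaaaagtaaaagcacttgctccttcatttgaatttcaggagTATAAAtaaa
H2bc18 (chromosome 3, chr3:96269450-96269699): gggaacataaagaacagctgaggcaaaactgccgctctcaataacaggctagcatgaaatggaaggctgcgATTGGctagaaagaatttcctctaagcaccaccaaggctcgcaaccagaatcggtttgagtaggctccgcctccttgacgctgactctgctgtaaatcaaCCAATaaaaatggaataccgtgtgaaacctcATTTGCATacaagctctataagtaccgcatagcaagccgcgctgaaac

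The 5 stretches held between 2 and 5 CCAAT boxes each. The octamer stood in those of H2bc8, H2bc3 and H2bc18, and TGACGTCA in that of H2bc11. Over the whole 300 base windows and both strands, CCAAT was found in 44 of 52 histone promoters (84.6%) and in 37.9% of all 27025 promoters in the table. ATTTGCAT was found in 12 of 52 (23.1%), against 1.75% of all promoters, and these 12 were 6 of 17 H2ac and 6 of 14 H2bc promoters. GGTCCG, the core of a site of H4 genes, was found in 10 of 11 H4c promoters (90.9%) and in 8.39% of all promoters. TATAAA was found in 30 of 52 (57.7%), against 14.2% of all promoters, and TGACGTCA in 4 of 52 (7.69%), against 1.88%. By block, CCAAT stood in 12 of 16 promoters of block A, 4 of 5 of block B, 11 of 13 of block C and 7 of 8 of block D. The octamer stood in 1 of 16 promoters of block A, 2 of 5 of block B, 2 of 13 of block C, 3 of 8 of block D and 2 of 8 of chromosome 3. Median GC content was 45.2% in block A, 44.3% in block B, 45.7% in block C, 40.5% in block D and 55.8% on chromosome 3. A match to these letters is a description and not a bound site. The windows of divergent pairs overlap, so the same site can be counted for both genes. This holds for the octamer at H2ac12 and H2bc12, H2ac8 and H2bc8, and H2bc1 and H2ac1. It also holds for TGACGTCA at H2ac11 and H2bc11. The motif counts are therefore of genes and not of distinct sites. Promoters were near copies in 2 of 1326 pairs, above 90% identity: H4c17 with H4c18 (99.0%) and H3c15 with H3c14 (90.2%), and the counts of these genes are uncertain because reads can be split or lost between copies.

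Peaks covered most of the genes. A peak in every library overlapped 51 of the 59 gene bodies with 500 bp on each side, 52 had a region common to all libraries, and 4 had no peak in any library (H2bc23, H2ac24 and both genes of block E). H3c10, H3c11 and H3c4 had no peak in old replicate 2, and H2ac23 was reached by a peak in old replicate 1 only, one also counted for H4c17. The 52 genes shared 51 distinct common regions, because neighbours fall under one region, so genes of a pair are not independent measurements.

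In proximal tubule-like cells, the reabsorbing epithelium that made up most cells of old replicate 2 and most young cells, the histone genes of blocks A and C had lower accessibility in both old libraries, while those of block D and chromosome 3 were close to the young level. Summed over its distinct peaks, block A had 93.0 and 65.7 CPM in the old libraries and 190.8 in the young library, a log2 difference of -1.27. Block C had 198 and 188 CPM in the old libraries and 399.5 in the young library, a log2 difference of -1.05. Both old libraries were below the young one in these 2 blocks. In block A the 95% Poisson intervals of the old libraries, 80.7 to 106.6 and 62.3 to 69.2, were themselves apart. Block A sums include H3c10 and H3c11, which had no peak in old replicate 2 and add 0 there in every class. Here they add 7.61 and 6.18 CPM in old replicate 1 and 7.03 and 15.4 in the young library. Block D had 308 and 258 CPM in the old libraries and 293 in the young library (log2 -0.05), so the young value lay between the old ones. Block B had 127 and 140.2 in the old libraries and 149.6 in the young one (log2 -0.16). Block B sums include a further H2ac12 peak that old replicate 1 lacks. From own peaks H2ac12 had 46.1 and 62.4 CPM in the old libraries and 72.8 in the young one. Its common region had 46.1 and 37.5, against 44.0. The 4 common regions of block B had a median log2 difference of -0.04, so the sum overstates the difference. The chromosome 3 genes had 205 and 190.4 in the old libraries and 216.5 in the young one (log2 -0.13). Taken whole, the chromosome 13 genes summed to 726 and 651 CPM in the old libraries and 1033 in the young library (log2 -0.58).

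**Figure D1:**
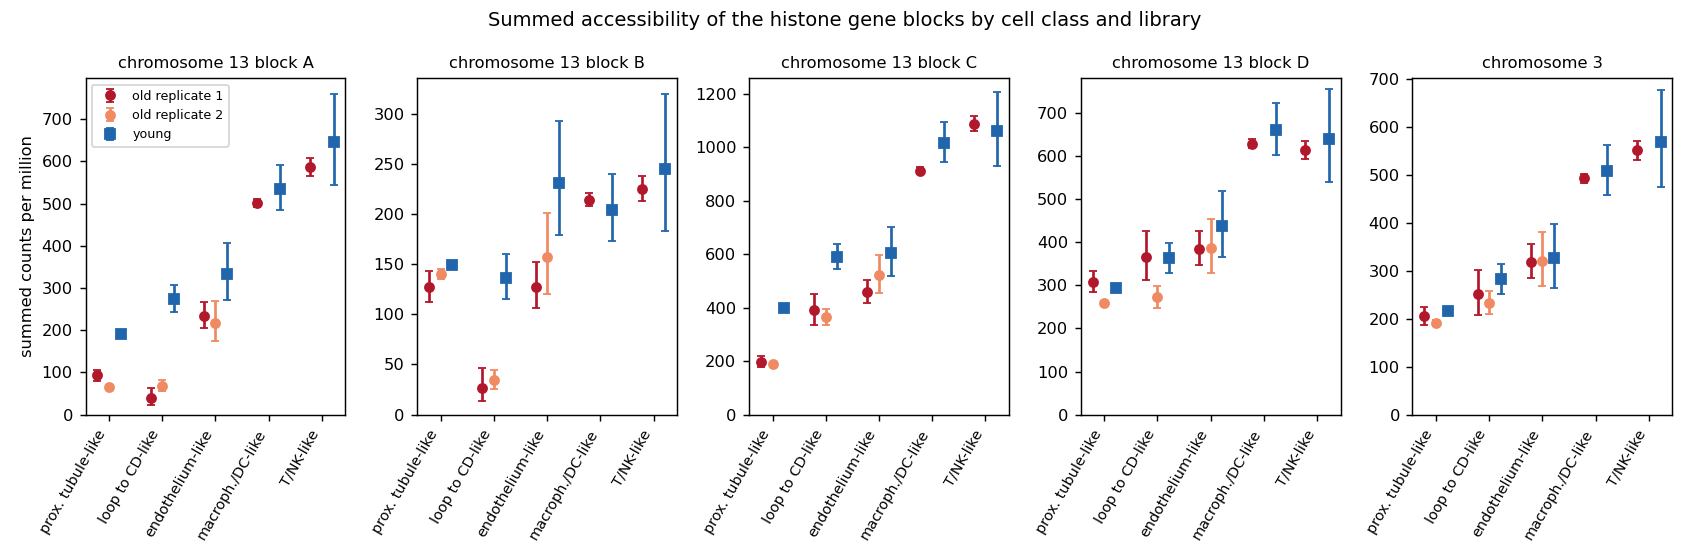
Summed CPM of the histone gene blocks (y axes, from 0) in 5 cell classes (x axis; CD is collecting duct, DC is dendritic cell). Circles are the old libraries and squares the young one, and bars are exact 95% Poisson intervals on fragments, which cover counting error only; old replicate 2 had too few immune cells to be drawn. In proximal tubule-like cells block A sits at 93.0 and 65.7 in the old libraries and 190.8 in the young one, while chromosome 3 sits at 205, 190.4 and 216.5.

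Fitted over all genes with edgeR's quasi-likelihood test, 52 histone genes were measurable in this class, each from its regions common to all libraries. At a Benjamini-Hochberg adjusted p under 0.05, 16 of them were called lower in old and 0 higher, beside 0.170% of the 23474 genes tested that were called lower and 0.400% called higher. That contrast helped to choose the genes, and nothing is read from the count. The 16 lie on 11 distinct sets of regions, 6 genes in block A and 10 in block C, and by family they were 6 of 17 H2ac, 6 of 14 H2bc, 2 of 9 H3c and 2 of 12 H4c genes. Both old libraries lay below the young one for 36 of the 52 (28.0% of all genes tested) and above it for 2 (28.2% of all genes). These 36 included all 13 measured genes of block A and all 13 of block C, but 2 of 5 in block B, 2 of 11 in block D and 6 of 10 on chromosome 3. The median log2 difference was -1.43 in block A, -0.10 in block B, -1.67 in block C, -0.08 in block D and -0.19 on chromosome 3, beside 0.00 over all genes tested.

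The widest differences lay in the middle of block C. The region shared by H2bc7 and H2ac7, a divergent pair that encodes H2B and H2A, had 3.81 and 2.60 CPM in the old libraries and 19.1 in the young library, a log2 difference of -2.66 ± 0.53 (SE). H2ac8 and H2bc8, whose promoter is printed above, had 7.61 and 4.84 in the old libraries and 27.7 in the young library (-2.24 ± 0.42). Both old libraries stayed below the young one at these pairs.

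H3c7, an H3 gene, had 16.6 and 23.7 CPM in the old libraries and 69.0 in the young library (-1.73 ± 0.25). H2bc9 had 7.61 and 10.5 in the old libraries and 31.0 in the young library (-1.73 ± 0.37). The old values were below the young one in each case, and the gene values are not independent because the region of H2bc9 is also counted for H3c7. H4c6 and H4c4, both H4 genes of the block, had differences of -1.67 and -1.58.

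At its edges block C changed less. H4c8, the first gene, had 44.7 and 37.1 CPM in the old libraries and 61.7 in the young library (-0.62 ± 0.23). H2bc6, whose annotated body of 37455 bp is the longest of the 59, had 73.7 and 65.1 in the old libraries and 81.7 in the young library (-0.25 ± 0.21). Within H2bc6 the region at its annotated start (chr13:23620830-23621847) had 48.0 and 39.2 CPM in the old libraries and 40.8 in the young library, so the groups overlapped there. Towards its other end, the region at chr13:23585613-23586509 had 15.2 and 12.4 in the old libraries and 26.6 in the young library, and the last common region (chr13:23584589-23585301) had 2.38 and 3.88, against 5.30.

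Block A held genes of lower accessibility. H2ac15 and H2bc15, the pair of the first promoter above, had 7.37 and 3.45 CPM in the old libraries and 20.7 in the young library (-2.07 ± 0.48). H2ac22 and H2bc22 had 19.7 and 9.54 in the old libraries and 38.2 in the young library (-1.49 ± 0.31). H2ac14, a pseudogene, shares its region with the H2B gene H2bc14, at 18.1 and 9.81 in the old libraries and 35.3 in the young library (-1.43 ± 0.32). In each pair old replicate 1 was above old replicate 2, and both stayed below the young library.

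The last genes of block A were barely open. H2ac23 and H4c17 had 0.476 and 0.699 CPM in the old libraries and 2.26 in the young library (-1.82 ± 1.04), an error more than a log2 unit wide. H4c18, the near copy of H4c17, had 0.951 and 1.61 in the old libraries and 2.18 in the young library.

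Blocks B and D and chromosome 3 held the genes that were near the same level. H2bc4 had 69.2 and 64.8 CPM in the old libraries and 69.9 in the young library (-0.07 ± 0.22), and H2ac6, which shares one of its regions, 59.9 and 51.5, against 59.0 (-0.10 ± 0.22). H4c3 had 59.0 and 64.0 in the old libraries and 60.9 in the young library (0.01 ± 0.22). H3c1 had 71.6 and 47.5 in the old libraries and 64.1 in the young library (-0.15 ± 0.22). In these 4 genes of block D the old values lay on both sides of the young one or within 1 SE of it.

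In block B, H2bc11 had 57.8 and 55.5 CPM in the old libraries and 60.1 in the young library (-0.10 ± 0.22). H4c9 was the gene with the largest difference above 0, at 23.1 and 22.3 in the old libraries and 16.7 in the young library (0.43 ± 0.34). Both old values were above the young one there, by little more than the standard error.

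On chromosome 3, H2ac21 and H2ac20, which encode H2A and share their regions, had 69.9 and 62.5 CPM in the old libraries and 77.7 in the young library (-0.25 ± 0.21). H3c13 had 49.0 and 51.7 in the old libraries and 58.5 in the young library (-0.22 ± 0.23). H2bc21 had 42.8 and 41.5 in the old libraries and 51.5 in the young library (-0.30 ± 0.24). Both old libraries were below the young one at these genes, by differences near the size of their standard errors.

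H2bc18 had 37.6 and 35.2 CPM in the old libraries and 40.8 in the young library (-0.18 ± 0.25), and H2ac19 24.7 and 20.1, against 24.1 (-0.13 ± 0.31). H4c14 had 38.5 and 38.1 in the old libraries and 37.5 in the young library (0.03 ± 0.25). H2ac18, also slightly above 0, had 21.9 and 18.1 in the old libraries and 18.8 in the young library (0.06 ± 0.35). H3c15 had 5.47 and 4.82 in the old libraries and 5.62 in the young library, and its near copy H3c14 2.38 and 1.69, against 2.22.

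The number called depended on the processing. The 16 became 5 with DESeq2, 0 with each library's own peaks, 0 with windows of 500 bp around the start, 1 in clusters that hold at least 10 cells of each library and 11 without cluster 16, which holds 107 of the 197 cells of old replicate 1 in this class. The block values moved less: without cluster 16 block A was at -1.69 and block C at -1.22, and in the shared clusters they were at -1.95 and -1.30.

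**Figure D2:**
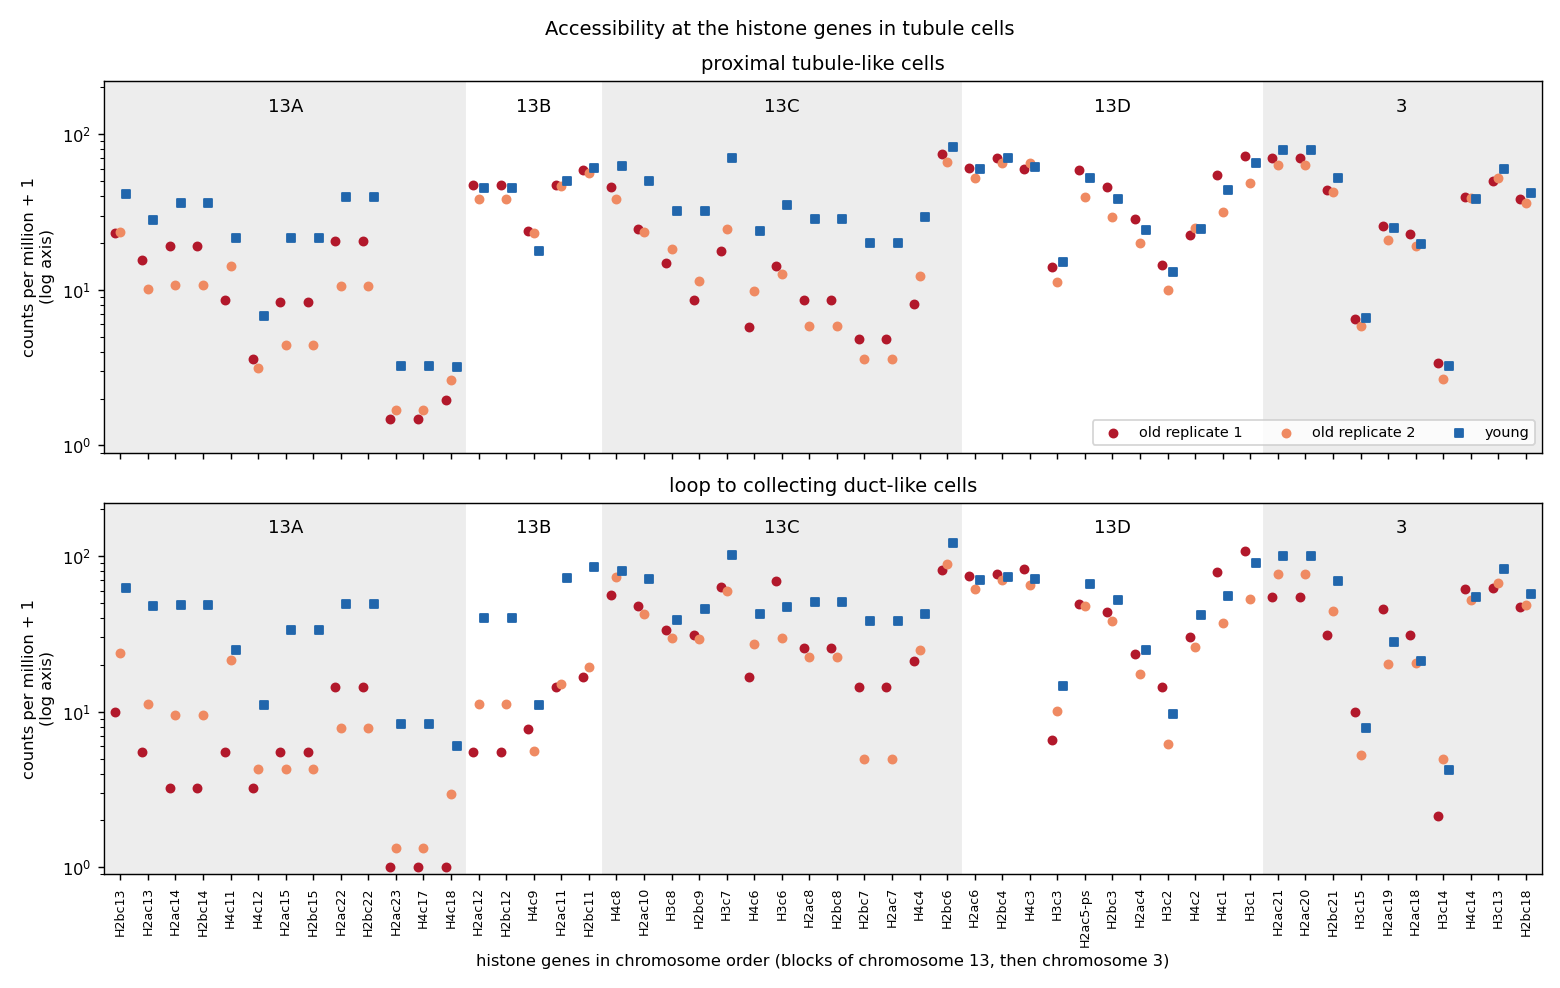
CPM with 1 added (log axis) of the histone genes with a region common to all libraries, in chromosome order, in proximal tubule-like cells (top) and loop to collecting duct-like cells (bottom); circles are the old libraries, squares the young one, and shading separates the blocks 13A to 13D and chromosome 3. The young squares lie above both circles across 13A and 13C in the top panel and across 13A and 13B in the bottom panel, while 13D and chromosome 3 are mixed; genes of a pair that share regions have the same values.

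In loop to collecting duct-like cells, the epithelium of the later nephron, blocks A and B had the widest differences, and block C a smaller one. Block A had 40.3 and 67.8 summed CPM in the old libraries and 274 in the young library, a log2 difference of -2.34. Block B had 26.9 and 34.4 in the old libraries and 136 in the young library (-2.15), while in proximal tubule-like cells the block was near the young level, as given above. Block C had 389.7 and 365 in the old libraries and 590.4 in the young library (-0.65). Block D had 365 and 273 in the old libraries and 362.5 in the young library (-0.18), and chromosome 3 had 251 and 232, against 282 (-0.22). The difference between the tubule classes in block B was not tested. Summed markers also differed in this class: proliferating cell markers had 335 and 311 in the old libraries and 388 in the young library, principal cell markers 156 and 161, against 124, injured proximal tubule markers 301 and 260, against 224, and endothelium markers 130 and 132, against 97.0. Their part in the block values was not tested.

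Of 51 histone genes measured in this class, 12 were called lower in old and 0 higher, beside 0.0701% of the 21398 genes tested called lower and 0.0421% called higher, and as above nothing is read from the count. They were 8 genes of block A and 4 of block B, on 8 distinct sets of regions, and all of them were H2ac (6 of 17) or H2bc (6 of 14) genes. Both old libraries lay below the young one for 40 of the 51 (32.1% of all genes tested) and above it for 0 (32.9% of all genes). The median log2 difference was -2.51 in block A, -2.25 in block B, -0.76 in block C, -0.28 in block D and -0.26 on chromosome 3, beside 0.01 over all genes tested.

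H2bc11, the block B gene printed above, had 15.7 and 18.3 CPM in the old libraries and 83.8 in the young library (-2.27 ± 0.37). H2ac11, across the divergent promoter, had 13.4 and 14.1 in the old libraries and 71.4 in the young library (-2.37 ± 0.41). H2ac12 and H2bc12 had 4.48 and 10.2 in the old libraries and 38.9 in the young library (-2.25 ± 0.54). Both old libraries were below the young one at all of these genes. H4c9, the H4 gene of the block, had 6.72 and 4.59 in the old libraries and 10.1 in the young library (-0.90 ± 1.01).

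In block A, H2ac14 and H2bc14 had 2.24 and 8.52 CPM in the old libraries and 47.6 in the young library (-2.88 ± 0.53). H2ac15 and H2bc15 had 4.48 and 3.28 in the old libraries and 32.5 in the young library (-3.14 ± 0.69). H2ac13 had 4.48 and 10.2 in the old libraries and 46.7 in the young library (-2.51 ± 0.50). These are values from 57 and 327 old cells, and an old level of 2.24 CPM rests on a few cut sites.

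H2ac22 and H2bc22 had 13.4 and 6.88 CPM in the old libraries and 48.5 in the young library (-2.41 ± 0.49). H2ac23 and H4c17 had 0 and 0.328 in the old libraries and 7.32 in the young library, with a fitted difference of -4.60 ± 2.01 that depends on the prior count. In block C the pair H2bc7 and H2ac7 again had the widest difference, with 13.4 and 3.93 in the old libraries and 37.1 in the young library (-2.36 ± 0.58). H3c6 in the same block had 68.3 and 28.8 in the old libraries and 45.8 in the young library, so its groups overlapped.

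On chromosome 3, H2bc21 had 30.2 and 43.6 CPM in the old libraries and 67.7 in the young library (-0.83 ± 0.34), and H2ac21 and H2ac20 had 53.8 and 75.3, against 99.8 (-0.59 ± 0.29). H3c13 had 61.6 and 66.2 in the old libraries and 81.5 in the young library (-0.35 ± 0.30). H2ac18 had 30.2 and 19.7 in the old libraries and 20.1 in the young library (0.24 ± 0.51), H2ac19 had 44.8 and 19.3, against 27.0 (0.13 ± 0.46), H2bc18 had 45.9 and 47.8, against 55.8 (-0.26 ± 0.35), H3c15 had 8.96 and 4.26, against 6.87 (-0.17 ± 1.13), and H4c14 had 60.5 and 51.4, against 53.6 (0.03 ± 0.34). In block D, H4c3 was also near 0, at 81.8 and 64.2 in the old libraries and 70.5 in the young library (0.01 ± 0.31). The number called was 0 with DESeq2, 0 with own peaks and 4 with cells of at least 3000 counts, while block A stayed between -2.77 and -2.02 when either old library was left out.

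**Figure D3:**
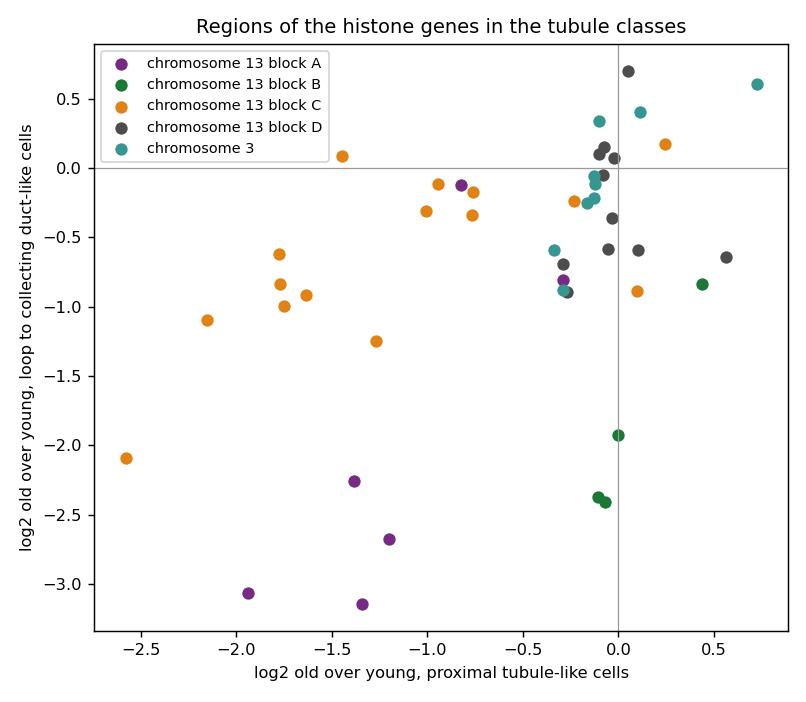
Log2 old over young of single regions of the histone genes in proximal tubule-like cells (x axis) and loop to collecting duct-like cells (y axis), for the 45 of 51 regions with a mean of at least 5 CPM over both classes; colours are the blocks. Block B regions lie near 0 on the x axis and down to -2.41 on the y axis, block C regions spread to -2.58 on the x axis, and block D and chromosome 3 regions gather near 0 on the x axis; both axes come from the same 3 libraries.

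Cells were also counted one by one, by whether they held any fragment in blocks A and C. With each cell thinned to 2000 fragments, the share with at least 1 fragment there was 34.8% (exact 95% interval 27.9 to 42.1, 184 cells) for old replicate 1, 34.9% (33.2 to 36.7, 2827 cells) for old replicate 2 and 62.9% (61.1 to 64.6, 3000 cells) for young cells. The thinning left out 13, 227 and 85 shallower cells, and without it the shares were 83.8%, 70.7% and 96.3%. For block D the thinned shares were 47.8% and 34.8% in the old libraries and 39.0% in the young library, so the young share lay between the old ones. Cells with 3 or more fragments in blocks A and C made up 2.17% and 1.20% in the old libraries and 8.60% in the young library. In loop to collecting duct-like cells the thinned share for blocks A and C was 56.5% and 46.1% in the old libraries and 70.0% in the young library, and for block B it was 8.70% and 5.35%, against 23.6%. The thinning left out 11, 84 and 68 of those cells, and without it the shares for blocks A and C were 78.9% and 70.3% in the old libraries and 78.4% in the young library, which had the lowest depth of the class. These intervals cover counting error only, and cells of 1 library are not replicates.

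Old and young proximal tubule-like cells fell mostly into separate clusters, so the same blocks were also read cluster by cluster, which gives values and no test. Cluster 18 held 184 cells of old replicate 2 and 52 young cells, and there block A had 50.5 CPM in old replicate 2, against 203 in the young library. Block C had 153 in the old and 347 in the young cells, and block D had 249.8 in old replicate 2, against 320.2 in the young library. In cluster 12, left without a name, block A had 27.8 in old replicate 2, against 133 in the young library, and block C had 153 in old and 403 in young cells. Over the clusters plotted, block A lay between 27.8 and 113 in old cells, except in cluster 13, and between 133 and 274 in young cells. Cluster 13, also without a name and of low depth, had 240.4 and 115 in the old libraries and 246 in the young library, and old replicate 1 there was near the young value.

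**Figure D4:**
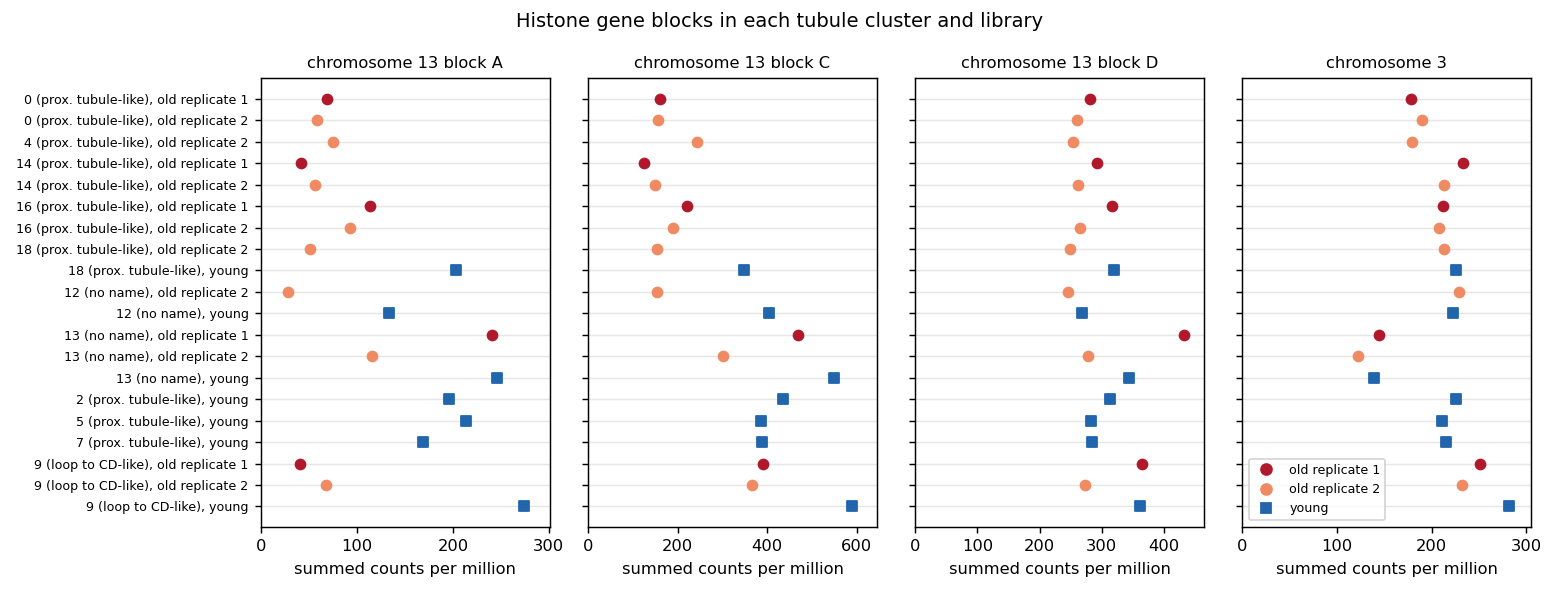
Summed CPM (x axes, from 0) of 3 chromosome 13 blocks and the chromosome 3 block in each tubule cluster and library with at least 20 cells (rows); circles are the old libraries and squares the young one. In blocks A and C the circles lie left of the squares in clusters 18, 12 and 9, which hold both ages; in block D and chromosome 3 old and young values cover much the same range, with 249.8 in old replicate 2, against 320.2 in the young library for block D of cluster 18.

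Endothelium-like cells, which line the kidney's vessels, were the class where the genes could be tested, since old and young endothelium had no part in choosing them. Blocks A to D of chromosome 13 had lower sums in both old libraries, but no single gene passed the test. Block A had 234 and 218 summed CPM in the old libraries and 334 in the young library (log2 -0.56), and block B had 128 and 157, against 231 (-0.70). Block C had 458 and 521 in the old libraries and 605 in the young library (-0.31), block D had 385 and 387, against 437 (-0.18), and chromosome 3 had 318 and 320.2, against 325 (-0.03). Over each library's own peaks, the Poisson intervals of both old libraries lay below that of the young library for block A. That of old replicate 1 alone did for blocks B and C, and the intervals overlapped for block D and chromosome 3. The block A sums include H3c10 and H3c11, at 5.15 and 16.5 CPM in old replicate 1 and 15.7 and 8.75 in the young library. Old replicate 2 had no peak there and counts 0, and its upper limit of 268.8 lay just below the young lower limit of 271.6. Leaving out H3c10 and H3c11 takes more from the young lower limit than this narrow gap, and nothing from old replicate 2. The separation of old replicate 2 from the young library in block A therefore rests on peaks that old replicate 2 lacks. It does not hold without them.

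Of 47 histone genes tested there with edgeR, 0 were called in either direction, beside 0.164% of 17121 genes called lower and 0.175% called higher. At an unadjusted p under 0.05 there were 8 lower and 0 higher, beside 3.46% of all genes lower and 5.44% higher. The 8 are genes and not distinct regions: H2ac14 and H2bc14, both among them, share a region. With DESeq2 0 were called, with 2 lower and 0 higher at that unadjusted level, beside 0.789% of all genes lower and 1.46% higher. The smallest adjusted p was 0.0722 (edgeR), for H2ac14 and H2bc14, at 26.2 and 43.0 CPM in the old libraries and 91.0 in the young library (-1.45 ± 0.41). H2ac10 had 35.5 and 19.0 in the old libraries and 70.0 in the young library (-1.27 ± 0.44, adjusted p 0.227 by edgeR). H2bc11 had 56.6 and 74.7 in the old libraries and 108 in the young library (-0.75 ± 0.35, adjusted p 0.473 by edgeR). The young class is 50 cells, and on simulated data of this class 70.0% of genes changed by 2 on the log2 scale were recovered. That simulation gave all genes the same dispersion, and recovery of smaller differences such as those named here was not measured.

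The median log2 difference of the 47 genes was -0.26, beside 0.01 over all genes tested in endothelium-like cells. Both old libraries were below the young one for 27 of them (36.9% of all genes tested) and above it for 11 (36.3% of all genes). H3c7 and H3c6, which were among the lower genes of the proximal tubule-like class, had higher old values: H3c7 had 77.2 and 84.8 in the old libraries and 63.0 in the young library, and H3c6 had 54.5 and 38.0, against 26.2. The proximal tubule marker sum in this class was 121 and 146 in the old libraries and 233 in the young library, and the proliferation marker sum 389.5 and 343, against 523; their part in these values was not tested.

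In the immune classes old replicate 1 could be set against the young library without a replicate, so no test was made. The macrophage or dendritic cell-like class was spread differently over its clusters at each age: clusters 3 and 6 held 1055 and 904 cells of old replicate 1, against 15 and 7 young cells, while clusters 8, 10 and 11 held 600, 354 and 373 cells of old replicate 1, against 34, 45 and 22 young cells. Relative to the counts in common regions, the blocks were close at both ages. Those regions held 39238763 of 61503166 peak counts in macrophage or dendritic cell-like cells of old replicate 1, and 1413513 of 1791077 in young ones. In T or NK cell-like cells they held 10368202 of 14430346 and 429459 of 497489. The share so differed between the ages, and values scaled to all own peaks are not given for these classes. Block A had 501 CPM (95% interval 492 to 511) in old replicate 1, against 536 (484 to 591) in the young library in macrophage or dendritic cell-like cells. Block C had 912 (899 to 926) in old replicate 1, against 1017 (946 to 1093) in the young library, and these intervals were apart. So were those of the whole chromosome 13 sum, at 2256 (2236 to 2277) in old replicate 1, against 2418 (2307 to 2533) in the young library. Chromosome 3 had 493 in old replicate 1, against 509 in the young library. In T or NK cell-like cells block A had 587 in old replicate 1, against 645 in the young library, while block B had 225 in old cells, against 244 in young cells, and block C 1087, against 1062. The log2 differences of blocks A to D and chromosome 3 lay between -0.16 and 0.07 in both classes.

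Gene by gene, from each library's own peaks, 54 histone genes had counts in both libraries, and the median log2 difference was -0.09 in macrophage or dendritic cell-like and -0.07 in T or NK cell-like cells. The Poisson intervals of old replicate 1 and the young library were apart for 7 genes in the macrophage class and 0 in the T or NK class. Of those 7, H4c1 had 162 CPM in old replicate 1, against 100.5 in the young library, and H3c1 had 224, against 169. H2ac6 had 104 in old replicate 1, against 149 in the young library, and likewise H2bc4 108, against 150.0, H2ac7 117, against 149, H3c13 126, against 161, and H4c2 44.7, against 66.5. H2bc7, among the widest differences in the tubule classes, had 75.5 in old replicate 1, against 100.5 in the young macrophage class, and H2ac15 had 79.5 in old replicate 1, against 104 in young cells.

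Levels also differed between classes within a library, although clusters were built from these and all other regions, which makes this a description. In the young library block A stood in the order proximal tubule-like (190.8), loop to collecting duct-like (274), endothelium-like (334), macrophage or dendritic cell-like (536) and T or NK cell-like cells (645). Block C followed the same order at 399.5, 590.4, 605, 1017 and 1062. In both blocks the intervals of loop to collecting duct-like and endothelium-like cells overlapped, as did those of the 2 immune classes. In old replicate 1, block A was 40.3 in loop to collecting duct-like, 93.0 in proximal tubule-like, 234 in endothelium-like, 501 in macrophage or dendritic cell-like and 587 in T or NK cell-like cells. In old replicate 2 it was 67.8 in loop to collecting duct-like, 65.7 in proximal tubule-like and 218 in endothelium-like cells, so the tubule classes did not differ there beyond their intervals.

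Genes that lie among the histone genes were read from lists in the same fits. Of 7 linker histone genes tested, which encode H1, 2 were called lower and 0 higher in old proximal tubule-like cells by edgeR, beside 0.170% of all genes lower and 0.400% higher: H1f5, inside block A, at 3.33 and 4.48 CPM in the old libraries and 19.3 in the young library (-2.25 ± 0.50, adjusted p 0.0026), and H1f3, in block C, at 5.47 and 12.6, against 34.6 (-1.83 ± 0.35, adjusted p 0.000127). H1f2, inside block D, had a difference of -0.08, and H1f1 and H1f4, which lie just past the ends of blocks D and C, had -0.18 and 0.11. The list was chosen with results of these data known. H1f5 in loop to collecting duct-like cells had 1.12 and 7.21 in the old libraries and 39.8 in the young library (-2.93 ± 0.58), and H1f3 38.1 and 31.4, against 43.9 (-0.37 ± 0.39).

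Of the other genes of the chromosome 13 span 0 were called. In proximal tubule-like cells 0.170% of all genes were called lower and 0.400% higher, so a count of 0 is near that share. The 33 measured of 77 tRNA genes there had a median of -0.07 in proximal tubule-like cells, with 7 above 0, and the 21 measured of 48 remaining genes had -0.10, with 6 above 0. Of all genes tested in that class 50.8% were above 0. The widest difference of those 21, -0.85 ± 0.65, was that of Btn1a1, a butyrophilin gene, and of Gm52036, which has the same values, at 4.28 and 4.22 CPM in the old libraries and 7.63 in the young library. Gm11335 had 38.1 and 40.1 in the old libraries and 58.2 in the young library (-0.58 ± 0.24). Regions that also count for histone genes were not taken out of these lists, so the neighbours are not all separate measurements. The tRNA gene n-TMcat9, at 25.4 and 26.8 in the old libraries and 44.3 in the young library, has the values of a region of H4c8. Slc17a1, a phosphate transporter gene of the proximal tubule, had 98.2 and 95.4 CPM in the old libraries and 84.0 in the young library (0.20 ± 0.21). Hfe, the haemochromatosis gene, had 37.6 and 35.0 in the old libraries and 31.4 in the young library (0.20 ± 0.26). The 31 measured tRNA genes of loop to collecting duct-like cells had a median of -0.61, with 5 above 0, and the 19 others -0.14, with 6 above 0, beside 50.8% of all genes tested there. In endothelium-like cells the medians were -0.34 for 25 tRNA genes and -0.44 for 15 others, both lower than the -0.26 of the histone genes there. Of the 75 vomeronasal receptor genes in the span, 0 could be tested in proximal tubule-like, loop to collecting duct-like or endothelium-like cells.

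Of the genes that act with the histone genes 0 were called in the same fits, and mitosis genes had medians below 0 in all 3 of these classes. Of all genes, 0.170% were called lower and 0.400% higher in proximal tubule-like cells. These shares were 0.0701% and 0.0421% in loop to collecting duct-like and 0.164% and 0.175% in endothelium-like cells. Counts of 0 in lists of this size are near those shares. Of 31 factors of histone gene transcription and 3′ end processing, among them Npat and Slbp, 0 were called in proximal tubule-like cells and the median was -0.03. Of 25 histone chaperones, which hand histones to DNA, 0 were called and the median was -0.03. Of 9 replication-independent core variants 0 were called and the median was 0.05, of 38 DNA replication genes 0 were called and the median was -0.11, and of 18 mitosis genes 0 were called and the median was -0.16. Above 0 were 9 of the 38 and 1 of the 18, beside 50.8% of all genes tested. In loop to collecting duct-like cells 0 of each list were called, with medians between -0.29, for mitosis genes (4 of 18 above 0), and -0.05. In endothelium-like cells 0 of each list were called, with medians between -0.36, for mitosis genes (6 of 18 above 0), and 0.14, for DNA replication genes (23 of 38 above 0). Of all genes tested 50.8% were above 0 in loop to collecting duct-like and 51.3% in endothelium-like cells. The summed proliferation markers in proximal tubule-like cells were 317 and 286 CPM in the old libraries and 328 in the young library. Macrophage or dendritic cell markers, 7 of 14 with a common region and 0 of these at 0, summed to 129 and 124 in the old libraries and 117 in the young library, and T or NK cell markers to 150.1 and 155, against 145. The part of these markers in the histone values was not tested.

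The 4 histone genes of chromosome 11 with other symbols had few peaks. Summed over 2 distinct peaks, they had 61.4 and 51.7 CPM in old proximal tubule-like cells and 64.6 in young ones (log2 -0.19). Loop to collecting duct-like cells had sums of 68.3 and 61.9 in the old libraries and 117 in the young library (-0.85), and endothelium-like cells 76.2 and 91.1, against 50.7 (0.72). H3f4 had no peak in any library.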

How the data were processed

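The deposited values are counts of transposase cut sites per peak and barcode, made with Cell Ranger ATAC 2.1.0 on mm10 per the submitters' processing notes, and each library has its own peak set. No label or header states further filters. Peaks of the 3 libraries that overlapped by at least 1 bp were merged into 250005 regions, of which 72317 had a peak in every library. Barcodes with at least 1000 counts were kept, likely doublets were removed by a score against simulated pairs (248 and 133 barcodes of the old libraries, 135 of the young one), and the rest were clustered by latent semantic indexing and Leiden clustering into 21 clusters. The clusters were named from marker lists; the naming rule was revised after the clusters had been seen, when a parietal epithelium list was set aside.

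A gene's counts were those of its distinct peaks overlapping the gene body and 500 bp on each side. Block sums use each library's own peaks, with a shared peak counted once, and gene values and fits use the common regions. Counts were summed per library and class, so cells are not replicates. Fits over all genes used edgeR's quasi-likelihood test (TMM, low-count filter, 2 old libraries against 1 young, Benjamini-Hochberg adjustment); DESeq2 was an alternative. The SE given with a log2 difference is an approximation. It was worked back as the size of the difference divided by the square root of the test's F statistic. Poisson and binomial 95% intervals are exact, on fragments or cells, and cover counting error only. On simulated data with 200 genes changed by 2 on the log2 scale and the same dispersion for all genes, 97.5%, 80.5% and 70.0% were recovered in proximal tubule-like, loop to collecting duct-like and endothelium-like cells. Smaller changes were not simulated.

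The histone genes and all lists were chosen with earlier results of these data known, and the division into blocks (gaps above 50 kb) after the values were seen. Values in every library are given, per chromosome, for up to 6 sets of regions with the highest mean in proximal tubule-like cells, up to 6 with the widest log2 difference in each tubule class, and any above 0; other genes were added after their values were seen. Software was Python 3.11.15, NumPy 2.4.6, SciPy 1.17.1, pandas 2.3.3, scikit-learn 1.9.0, python-igraph 0.11.9, leidenalg 0.10.2, Biopython 1.88, matplotlib 3.10.9, R 4.3.3, edgeR 4.0.16, DESeq2 1.42.0 and limma 3.58.1.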

Additional observations from a re-analysis of the deposited data

Results flagged for a closer look

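Some genes had both old libraries on one side of the young library in one class and on the other side in another, and in each case the difference between the classes was not tested. All classes come from the same 3 libraries. H4c9 had a log2 difference, old over young, of 0.43 in proximal tubule-like cells, -0.90 in loop to collecting duct-like cells and -0.71 in endothelium-like cells. H2ac21 and H2ac20, which share their regions, had -0.25 in proximal tubule-like, -0.59 in loop to collecting duct-like and 0.057 in endothelium-like cells. H4c14 had 0.026 in proximal tubule-like and -0.25 in endothelium-like cells.

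In block A, H4c12 had -1.32 in proximal tubule-like, -1.78 in loop to collecting duct-like and 0.39 in endothelium-like cells. In block C, H2bc9 had -1.73, -0.64 and 0.053 in the same order of classes, H3c7 had -1.73, -0.76 and 0.36, and H3c6 had -1.47 in proximal tubule-like and 0.86 in endothelium-like cells. In block D, H2bc4 had -0.072 in proximal tubule-like and 0.34 in endothelium-like cells. H2ac5-ps had -0.47 in loop to collecting duct-like and 0.34 in endothelium-like cells, and H2bc3 had -0.39 and 0.38. The summed chromosome 11 genes had -0.19 in proximal tubule-like, -0.85 in loop to collecting duct-like and 0.72 in endothelium-like cells.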

How the results depend on the processing

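Counts of calls moved with the processing, and the cause was not tested. In proximal tubule-like cells 94 genes were called higher and 40 lower in old; this was 44 and 6 with DESeq2, 0 and 0 with each library's own peaks, 5 and 0 with windows at the gene start, 42 and 3 in clusters shared by all libraries, and 12 and 15 without cluster 16 (chosen after the clusters were seen). The 16 histone genes called lower became 5, 0, 0 and 1 under the first 4 of these, and their median log2 of -0.30 was -0.48 with own peaks, -0.45 at the gene start, -0.48 in shared clusters and -0.49 without cluster 16. In loop to collecting duct-like cells 9 were higher and 15 lower; DESeq2 gave 2 and 0, own peaks 0 and 0, no low-count filter 14 higher, and at least 3000 counts per cell 4 higher. The 12 histone genes lower there became 0, 0 and, at 3000 counts, 4. In endothelium-like cells 30 were higher and 28 lower; DESeq2 gave 1 and 0, gene start windows 2 and 1, and own peaks 2 lower, and the histone median of -0.26 was -0.33 at the gene start and -0.21 at 3000 counts.

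In proximal tubule-like cells the chromosome 13 log2 was -0.71 in shared clusters, and chromosome 3 was -0.047 when scaled to the counts in all own peaks and -0.022 in shared clusters. Block A was -1.95 in shared clusters and -1.69 without cluster 16. Block B was 0.0039 with common regions, 0.0046 at the gene start and 0.11 in shared clusters. Block C was -0.97 when scaled to own peaks, -1.30 in shared clusters and -1.22 without cluster 16. Leaving out either old library, the histone median ranged between -0.43 and -0.29 in proximal tubule-like, -0.88 and -0.69 in loop to collecting duct-like and -0.23 and -0.15 in endothelium-like cells. These medians are of differences in log2 CPM with a prior count added, and not of fitted values. They differ from the main medians in measure as well as in libraries. With either old library left out, block A sums ranged between -1.54 and -1.04 in proximal tubule-like and -2.77 and -2.02 in loop to collecting duct-like cells. Block B in loop to collecting duct-like cells ranged between -2.34 and -1.99, and block C in proximal tubule-like cells between -1.09 and -1.01.

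Without thinning, the shares of cells with a fragment in blocks A and C were 83.8% and 70.7% in old and 96.3% in young proximal tubule-like cells, and 78.9%, 70.3% and 78.4% in loop to collecting duct-like cells. For block D they were 86.8%, 75.0% and 90.02%, and 84.2%, 61.8% and 63.5%. In shared clusters the thinned proximal tubule-like shares were 30.4% in old replicate 2 and 55.7% in young cells for blocks A and C, and 36.2%, 37.6% and 44.3% for block D. With clusters built without histone regions the thinned share for block D in loop to collecting duct-like cells of old replicate 1 was 39.1%. That class held the same 57 cells and 1010510 peak counts as in the main clusters. Only the random draw of the thinning was new, so the value shows no dependence on the clusters. Of the alternatives for single genes, 61 moved, 93 lost and 10 gained a call, 1509 did neither and 0 reversed. The 1509 include called genes with an old library left out, where no call could be made and only the sign was compared. Leaving out an old library leaves 1 against 1, which gives values but no count of calls. No paired analysis was made, because the labels give no pairing between old and young libraries. The smallest summed counts were those of old replicate 1 in both tubule classes, with 197 proximal tubule-like and 57 loop to collecting duct-like cells, and those of the young library in endothelium-like cells, with 50 cells.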
